A study of Mus musculus with 12 samples.

Results

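Among the 25674 probes of the expression table deposited with this series, 193 (0.752%) had a difference between BAF250b-/- and wild-type mouse embryonic stem (ES) cells that turned over between 18 h and 72 h after passaging. In 160 of them (0.623% of the probes) the knockout (KO) cells had more RNA than wild type (WT) at 18 h and less at 72 h. In the other 33 (0.129%) they had less at 18 h and more at 72 h. The members were selected on these very differences. The KO effect was the mean of KO clones 4 and 7 minus WT on a log2 scale, each group being the mean of 2 arrays. It had to reach at least 0.35 in one direction at 18 h and in the opposite direction at 72 h, with both clones of the same sign at each time. The differences between KO and WT that follow are therefore a description with no test.

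The study used 12 two-colour arrays, 2 for each of 6 groups: WT line #3 and KO clones 4 and 7, each at 18 h and at 72 h. The KO genotype is represented by 2 clones and WT by 1 line, all labelled as a hybrid of B6, 129 and CD1 mice from the blastocyst stage. Every array set a Cy3-labelled sample against the same Cy5-labelled pool of RNA from 11 mouse cell lines, so a level is a log2 ratio of sample over pool. The titles give the letter A to the pair of WT arrays at 18 h, and no label states separate cultures for every group. The spread between arrays may therefore be partly technical. Median sample intensity lay between 513.1 and 653.0 per array, and between 89.9% and 97.3% of the probes were brighter than 95% of the negative control spots. The arrays of clone 7 at 72 h correlated at 0.952 across probes and those of the other groups at 0.99. Regions in which the reference signal of an array departed from that of the others held 14.6% and 10.6% of the table's probes on arrays 1 and 2 of clone 7 at 72 h, and between 0% and 8.54% on the rest. Clone 7 was feature-extracted on another day than WT and clone 4, so this day and clone 7 cannot be told apart. No gene names come with the probes, and the deleted gene and the markers of ES cells were not analysed here.

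BAF250b, also called ARID1B, is a subunit of one form of the SWI/SNF complex, which uses ATP to slide or evict nucleosomes. BAF250a and BAF250b are alternative subunits of this complex and bind DNA through an AT-rich interaction domain. In ES cells the complex takes part in keeping the undifferentiated state. After passaging, ES cells attach, divide and form colonies, so a culture soon after passaging and one several days later differ in cell density and in the age of the medium.

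Members named by the smaller of their 2 KO effects are identified here by the first 30 bases of their 60-base probes, written 5′ to 3′ as in the files. Z00001583-1, Z00025587-1 and Z00023081-1 were named by the size of their change with time instead. No capitals are used, since no part of a probe is singled out. Probes in the first ranks that had a spot flagged as an outlier, or arrays of clone 7 at 72 h more than 1 apart, are left out of the list. Z00022190-1, Z00028256-1 and Z00063028-1 stay in it, although their WT arrays at 72 h lay more than 0.5 apart. The first 8 were higher in KO at 18 h and lower at 72 h, and the other 6 the opposite.
Z00023686-1: gcattgttccactgagggacagggacaagt
Z00007625-1: gacaggagtcatcttctagctttttaaaag
Z00052046-1: ctccaaacacaagtcagatttcagtagacc
Z00010202-1: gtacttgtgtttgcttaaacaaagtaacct
Z00036262-1: acatgtccaacctaggcaatactggctttg
Z00001247-1: caaacagaaaacagggagatgtaaaacagt
Z00001583-1: aattacctctataaagaacaactaaggcta
Z00025587-1: atgccttgtttctgaaactgctatgtacga
Z00001665-1: catattgactttacattcaactgtgtaata
Z00021906-1: acatgtatgactttaaatggctggaactgc
Z00023081-1: cctaagtgctcataacagaggccttcactg
Z00022190-1: tcttatactttcaacaaagctgaaccctaa
Z00028256-1: cctaagacaaaatgatcaaggaacccaacc
Z00063028-1: ggccggctagcctaacctatttggtgagcc
Only promoter windows of the RefSeq table for GRCm38.p6 were searched, for exact runs of at least 20 bases. None of the 193 probes matched one, so no genome position is given for them. Other probes are not set beside this result, so it is not read as a trait of the members.

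In the deposited table, the 160 probes higher in KO at 18 h had effects between 0.35 and 1.32 there, with a median of 0.46, and between -2.13 and -0.35 at 72 h, with a median of -0.65. The 33 of the opposite direction lay between -1.13 and -0.36 at 18 h (median -0.44) and between 0.35 and 2.36 at 72 h (median 0.59). Turnover without a limit on size was nearly even between the directions: in 3117 probes KO was higher at 18 h and lower at 72 h, and in 3009 the reverse, with both clones alike. Past 0.35 the first direction was the larger. KO was at least 0.35 higher at 18 h in 1214 probes and at least 0.35 lower in 749. At 72 h these counts were 2704 and 3697. By comparison, 531 probes were at least 0.35 higher at both times and 401 lower at both.

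**Figure D1:**
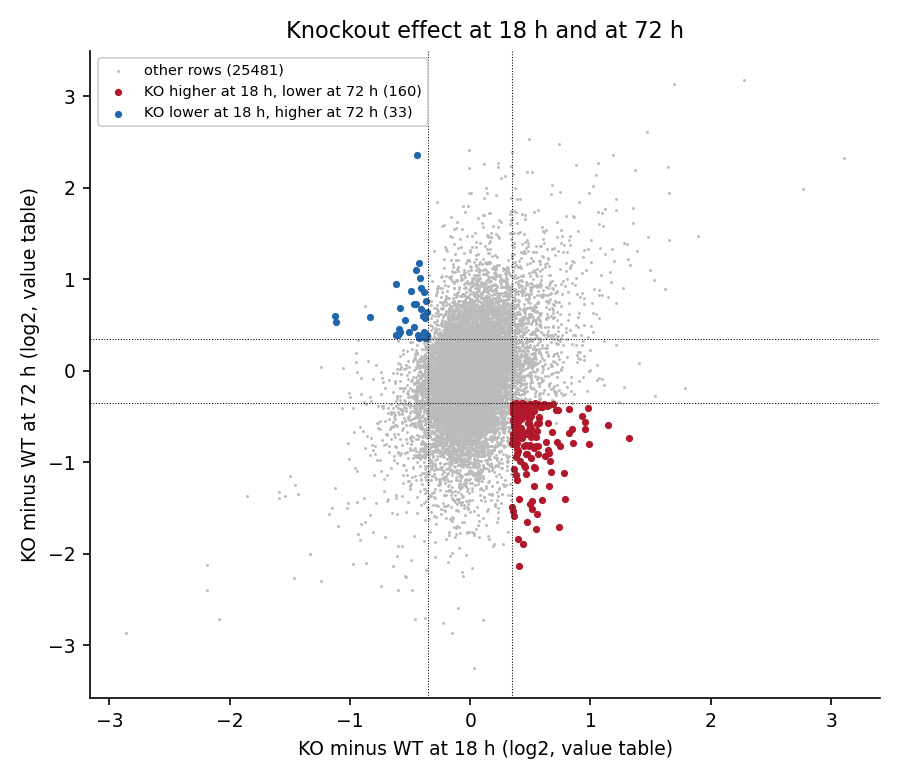
Each point is 1 of the 25674 probes of the deposited table, with the KO minus WT difference at 18 h on the x axis and at 72 h on the y axis (log2, mean of both clones minus WT). Red marks the 160 probes higher at 18 h and lower at 72 h, blue the 33 of the opposite direction, and dotted lines stand at 0.35 and -0.35; the members fill the lower right and upper left corners.

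The threshold cuts through a continuous cloud. Just inside it, probe Z00046387-1 had 0.3507 at 18 h and -1.4893 at 72 h, and Z00039716-1 had 0.3510 and -0.7879. Just outside, Z00034825-1 had 0.8446 and -0.3494, and Z00016366-1 had 0.3466 and -0.6053. In the other direction Z00014112-1 (-0.3720, 0.3535) and Z00021939-1 (-0.4216, 0.3572) were the last inside. Z00022995-1 (-0.3455, 0.3567) and Z00034236-1 (-0.3451, 0.7606) were the first outside. At a limit of 0.25 the 2 directions held 389 and 133 probes, and at 0.5 they held 45 and 6.

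Refitting the scanner intensities with background correction and loess, which left out spots flagged as outliers, kept both signs for 159 of the 160 and 31 of the 33 probes. Both effects still reached 0.35 in 105 and 19 of them. Z00025274-1, Z00021474-1 and Z00049352-1 lost a sign, and each of these had a flagged spot. In the limma fit over 42000 probes, with Benjamini-Hochberg adjusted p under 0.05 as the call, 114 of the 160 were higher in KO at 18 h, where 6.97% of all probes were called higher. At 72 h, 144 were lower, against 18.1% of all probes. The one called higher, Z00025274-1, had a flagged spot on WT array 2 at 72 h. Of the 33, 17 were lower at 18 h (7.27% of all probes) and 26 higher at 72 h (14.1%). The change of the KO effect between the times was called lower for 149 of the 160 (13.7% of all probes) and higher for 28 of the 33 (10.2%). Since the members were selected on these contrasts, nothing is read from the counts. Calls at both times in the selected direction were made for 112 and 15 probes, against 1.54% and 1.02% of all probes, and at neither time for 14 and 5, against 63.8%. The arrays of KO lay wholly on one side of the WT arrays at 18 h, and wholly on the other side at 72 h, in 140 and 26, as in 3.81% and 3.27% of all probes. These counts too follow the selection. Without WT array 2 at 18 h the calls at 18 h fell from 131 to 82 of the 193. In RNA from a whole culture, fewer cells of a type and less RNA per cell cannot be told apart.

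**Figure D2:**
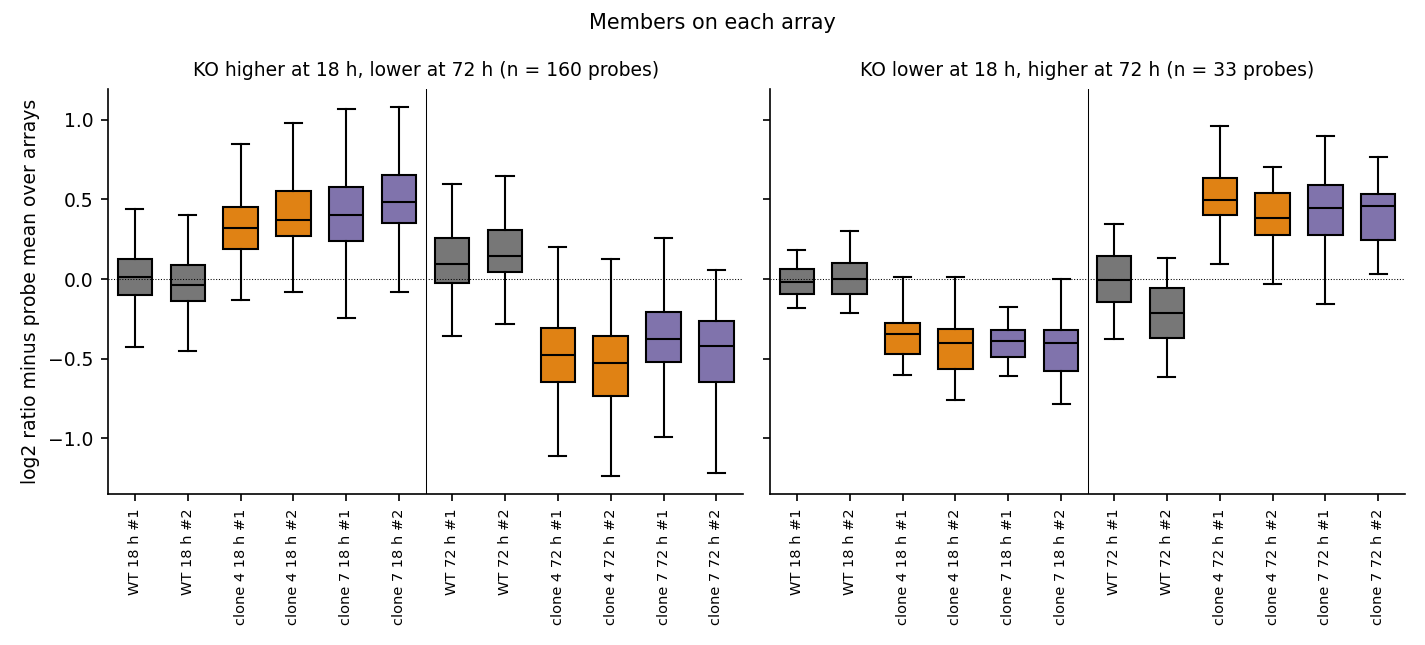
Boxes show, for each array, the log2 ratio of the members minus each probe's own mean over the arrays (line, median; box, quartiles; whiskers, up to 1.5 box lengths), with 18 h to the left and 72 h to the right of the line in each panel. In the left panel (160 probes) the WT medians stay between -0.04 and 0.14 while both clones pass from 0.32 to 0.48 at 18 h down to -0.53 to -0.37 at 72 h; the right panel (33 probes) runs the opposite way.

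How the turnover was divided between the 2 genotypes was not fixed by the selection, which set only the difference between them. In the 160 probes the KO cells accounted for most of it: their median change from 18 h to 72 h was -0.86, against 0.13 in WT. The median was -0.85 in each of clone 4 and clone 7 taken alone. In KO 147 of the 160 fell with time (21.4% of all probes did), 2 rose (16.6% of all probes) and 11 were not called. In WT 37 rose (3.99% of all probes), 9 fell (4.32%) and 114 were not called. KO means rest on both clones and WT means on 1 line, each with 2 arrays per time. A WT change is therefore less precise and less readily called than a KO change of the same size. At an unadjusted p under 0.05 in limma, the WT change passed in 76 of the 160 (19.1% of all probes) and the KO change in 152 (44.8%). For 106 probes the KO change was called lower and the WT change was not called (17.2% of all probes), for 32 WT rose while KO fell (0.764%), and for 9 both fell (3.4%). The selection asked for a gap between both changes of at least the sum of its limits, so these shares are a description beside those of unselected probes. WT rose with no call in KO for 3, Z00046358-1, Z00045071-1 and Z00059271-1. Both rose for 2, Z00025587-1 and Z00006077-1, and 8 had no call in either.

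The 33 probes of the opposite direction showed the mirror pattern. Their median change with time was 0.87 in KO (0.82 in clone 4, 0.89 in clone 7) and -0.10 in WT. In KO 28 rose and 5 were not called. In WT 26 were not called, 5 fell (Z00001665-1, Z00021906-1, Z00058273-1, Z00047004-1 and Z00056249-1) and 2 rose (Z00023081-1 and Z00007613-1). At an unadjusted p under 0.05 in limma, the WT change passed in 9 of the 33 and the KO change in 29. The KO change exceeded the WT change in size for 141 of the 160 and 30 of the 33 probes, as it did for 66.2% of all probes of the table. Fewer WT changes were called without any 1 of the 4 WT arrays: 27 to 34 of the 193, against 53 with all of them.

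**Figure D3:**
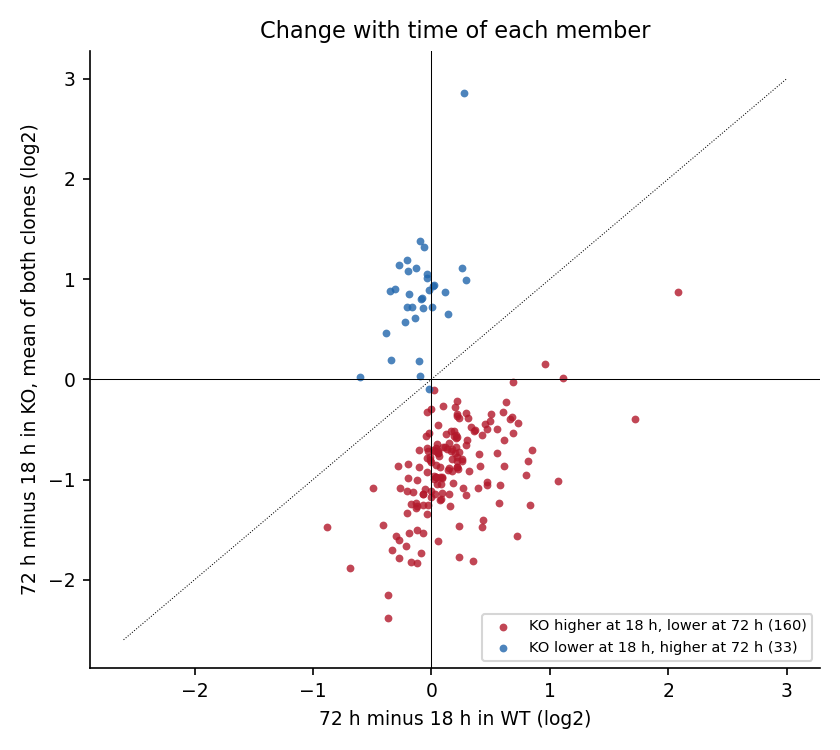
Each point is 1 member, with the change from 18 h to 72 h in WT on the x axis and in KO (mean of both clones) on the y axis, both in log2; the dotted line marks equal change. Most of the 160 red points lie below 0 on the y axis and near 0 on the x axis, and most of the 33 blue points lie above 0 on the y axis; Z00023081-1 is the highest blue point, at 2.86.

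Z00023686-1 stood first among the probes higher in KO at 18 h. Its log2 ratios were -1.29 and -1.35 in WT, -0.57 and -0.61 in clone 4, and -0.19 and -0.29 in clone 7 at 18 h. At 72 h they were -0.48 and -0.53 in WT, -1.44 and -1.39 in clone 4, and -1.04 and -1.06 in clone 7. No KO array overlapped a WT array at either time, and WT rose by about as much (0.82) as KO fell (-0.82). The KO effect was 0.91 (SE 0.04) at 18 h and -0.73 (SE 0.04) at 72 h.

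Z00036262-1 had the largest KO effect at 18 h and a high level against the pool throughout. It read 2.96 and 3.02 in WT, 4.25 and 4.27 in clone 4 and 4.37 and 4.35 in clone 7 at 18 h. At 72 h it read 3.99 and 4.12 in WT, 3.14 and 3.01 in clone 4, and 3.53 in both arrays of clone 7. WT thus ended near where KO began, and clone 4 ended near where WT began. The effects were 1.32 (SE 0.05) and -0.76 (SE 0.05).

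Z00007625-1 followed the same course. It was at 0.49 and 0.47 in WT, 1.13 and 1.18 in clone 4, and 1.37 and 1.44 in clone 7 at 18 h. At 72 h WT stood at 1.29 and 1.36, clone 4 at 0.51 and 0.43 and clone 7 at 0.78 and 0.59. The groups did not overlap, and the KO effect went from 0.80 to -0.75 (SE 0.06 for both).

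In other probes WT moved less. Z00052046-1 was at 3.18 and 3.20 in WT at 18 h and at 3.49 and 3.60 at 72 h. In clone 4 it went from 3.81 and 3.74 to 1.91 and 1.94, and in clone 7 from 3.87 and 4.18 to 2.45 and 2.03. The change with time was -1.82 (SE 0.09) in KO and 0.35 (SE 0.13), not called, in WT.

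Z00010202-1 lay far below the pool on every array. It read -5.62 and -5.63 in WT at 18 h and -5.84 and -5.76 at 72 h. Clone 4 went from -4.89 and -5.07 to -6.58 and -6.49, and clone 7 from -4.73 and -4.93 to -6.74 and -7.11. Both clones crossed the WT level, with a KO change of -1.83.

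Z00001247-1 was flat in WT, at -1.21 and -1.24 at 18 h and -1.26 and -1.05 at 72 h. Clone 4 passed from -0.55 and -0.74 to -1.97 and -1.89, and clone 7 from -0.51 and -0.54 to -1.64 and -1.67. The largest fall of all members in KO was that of Z00001583-1, chosen for this after its values were seen: clone 4 went from -0.05 and -0.12 to -2.37 and -2.40, and clone 7 from 0.07 and 0.09 to -2.43 and -2.32. WT moved the same way by less, from -0.37 and -0.46 to -0.79 and -0.77.

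Z00025587-1, also picked from its values, was the converse case, in which both genotypes rose and WT overtook KO. WT went from -0.24 and -0.35 to 1.71 and 1.86, a change of 2.08 (SE 0.07). Clone 4 went from 0.35 and 0.44 to 1.19 and 1.12, and clone 7 from 0.55 and 0.64 to 1.54 and 1.61. The KO change was 0.87 (SE 0.05).

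**Figure D4:**
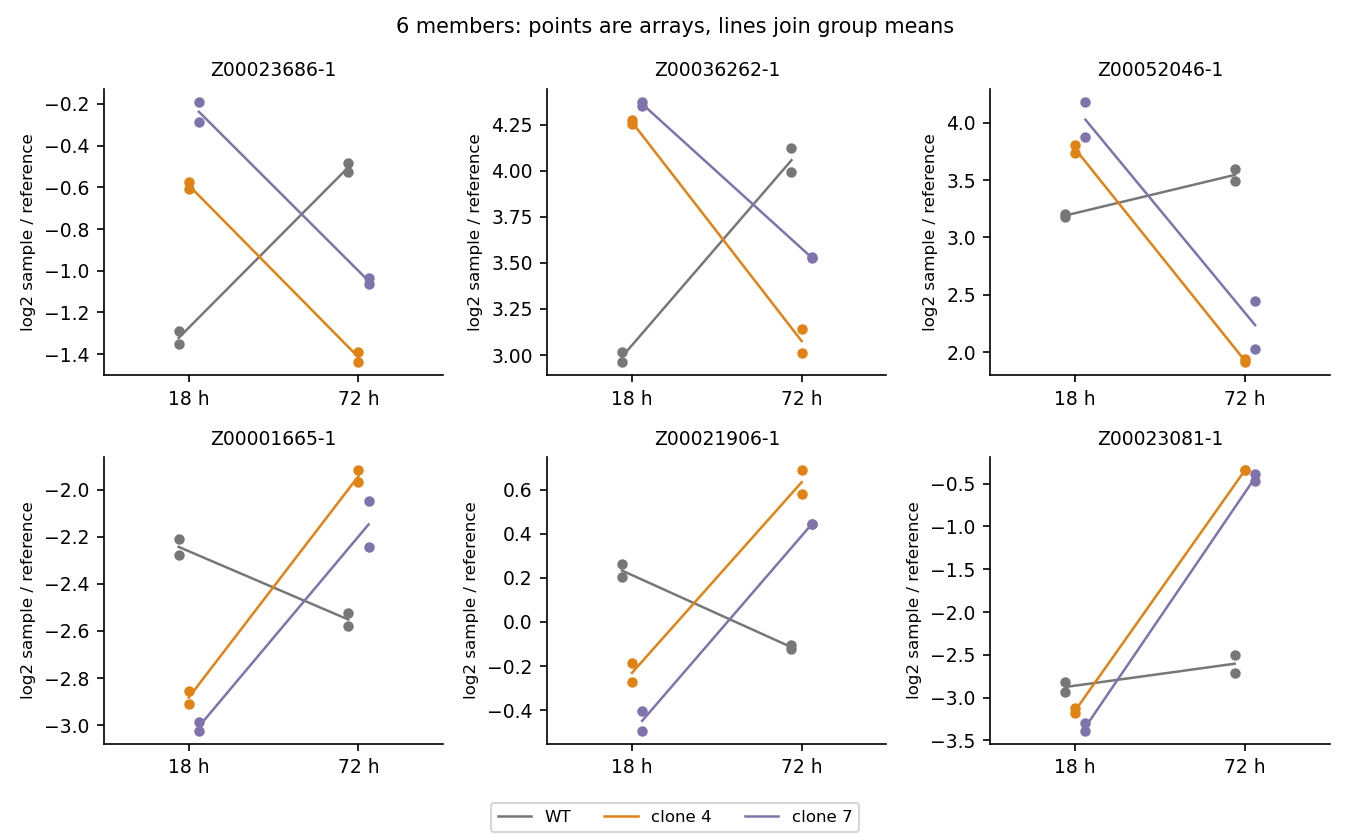
Log2 ratio of sample over reference pool for 6 members at 18 h and 72 h; points are single arrays, lines join group means of 2 arrays, and each panel has its own y axis. In the top row both clones start above WT and end below it; in the bottom row they start below WT and end above it.

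Among the 33 probes lower in KO at 18 h, Z00001665-1 and Z00021906-1 had tight arrays and crossing courses. Z00001665-1 was at -2.28 and -2.21 in WT, -2.85 and -2.91 in clone 4 and -2.99 and -3.02 in clone 7 at 18 h. At 72 h WT had -2.58 and -2.52, clone 4 had -1.97 and -1.92 and clone 7 had -2.24 and -2.05. No KO array overlapped WT at either time, and the KO effect went from -0.70 to 0.51 (SE 0.05 for both).

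Z00021906-1 read 0.26 and 0.21 in WT, -0.19 and -0.27 in clone 4, and -0.40 and -0.49 in clone 7 at 18 h. At 72 h WT was at -0.10 and -0.12, clone 4 at 0.58 and 0.69, and clone 7 at 0.44 and 0.45. WT fell by 0.35 while KO rose by 0.88.

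Z00023081-1, chosen after its values were seen, had the largest rise of all members. At 18 h it stood at -2.94 and -2.82 in WT, -3.13 and -3.18 in clone 4, and -3.30 and -3.39 in clone 7. At 72 h WT was at -2.50 and -2.71, whereas clone 4 read -0.34 on both arrays and clone 7 -0.47 and -0.39. The effect at 18 h was small, -0.37 (SE 0.06), and at 72 h it was 2.22 (SE 0.06).

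Part of the 33 stood apart on 1 WT array. In 8 of the 33 probes (24.2%) the WT arrays at 72 h lay more than 0.5 apart, array 2 being the lower one each time. Such a gap occurred in 49 of the 25674 probes of the table (0.191%) and in none of the 160. A low WT array 2 at 72 h raises the KO minus WT difference at that time. This favours selection into the 33 and hinders selection into the 160, so these shares partly follow the selection. The 8 include the first-ranked Z00022190-1, which had 0.37 on WT array 1 and -0.59 on array 2 at 72 h. Clone 4 was at 1.01 and 0.61 there and clone 7 at 0.79 and 0.55. At 18 h WT had 0.01 and -0.11, clone 4 -0.50 and -0.73, and clone 7 -0.50 and -0.59. All KO arrays at 72 h therefore stood above both WT arrays, but by different amounts.

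The other 7 were Z00028256-1, Z00063028-1, Z00011189-1, Z00003132-1, Z00023372-1, Z00052605-1 and Z00008106-1. Z00028256-1 had 0.77 and -0.10 on the WT arrays at 72 h, and Z00063028-1 had 0.29 and -0.37. Set against WT array 1 alone, the KO mean at 72 h was higher by 0.22 to 0.44 in the 8 probes, and in 6 of them by at least 0.35. In all 8 every KO array exceeded WT array 1. What set array 2 apart was not tested.

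Several other members rested on single spots. A spot flagged as an outlier occurred in 6 of the 33 probes (18.2%) and in 4 of the 160 (2.5%), against 2.51% of all probes of the table. In the 33, a WT spot at 18 h was flagged in each of the 6. Z00034544-1, second in rank, had -0.13 at 18 h without the flagged spot and -0.76 with it. Z00025790-1 went from -0.02 to -0.82 in the same way, and Z00021474-1 from 0.06 to -0.49. Of the 10 members with a flagged spot, 3 kept effects of 0.35 at both times without it and 6 with it. Of the 183 with none, 121 did.

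In 5 of the 160 probes the arrays of clone 7 at 72 h lay more than 1 apart, against 1.09% of all probes of the table: Z00012450-1, Z00023765-1, Z00022444-1, Z00024137-1 and Z00030958-1. Z00012450-1 read 1.05 and -0.59 on these arrays, with WT at 0.95 and 0.97 and clone 4 at 0.65 and 0.70. Z00022444-1 read 1.03 and -2.43, and Z00024137-1 0.90 and -2.72, so that array 1 stood above the WT means of 0.74 and 0.72. Z00023765-1 was lower than WT (1.47 and 1.83) on all KO arrays at 72 h: clone 4 had 0.56 and 0.40 and clone 7 had 0.20 and -0.87. The departing regions of array 1 of clone 7 at 72 h held 30 of the 160 and 3 of the 33 members, beside 14.6% of all probes, and those of array 2 held 19 and 2, beside 10.6%. On any of the 12 arrays such regions held 66 and 9 members and 35% of all probes.

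The rule was also applied to one array of each group and the result read on the other. On arrays 1 it found 105 probes higher at 18 h and lower at 72 h; on arrays 2, which that choice did not use, 102 of them had both signs and 66 (62.9%) passed the rule again. Their medians on arrays 2 were 0.46 at 18 h and -0.70 at 72 h, where all probes had -0.01 and -0.002. The choice on arrays 2 found 264 probes, of which 222 had both signs and 66 (25%) passed on arrays 1, with medians of 0.29 and -0.52. In the opposite direction 13 probes passed on both sets of arrays. They were 40.6% of the 32 found on arrays 1 and 17.6% of the 74 found on arrays 2. Both WT arrays at 18 h have the letter A in their titles, so the 2 sets may not be independent there. The share of all probes with these signs on 1 set is not given. Leaving out each of the 12 arrays in turn, 75 of the 160 and 14 of the 33 passed the rule every time.

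Clone 4 against clone 7 was not part of the selection apart from the shared sign. At 18 h the clones differed in 2 of the 193 probes (0.136% of all probes): Z00023686-1 by 0.35 (SE 0.05, limma adjusted p 0.0349) and Z00026586-1 by 0.36 (SE 0.05, adjusted p 0.0467), both higher in clone 7. At 72 h they differed in 18, all among the 160: 17 were higher in clone 7 (2.82% of all probes) and Z00005509-1 was lower (2.04%), by -0.40 (SE 0.07, adjusted p 0.0150). At an unadjusted p under 0.05 in the same limma fit, the clones differed at 72 h in 67 of the 160 and 6 of the 33 probes, and in 21% of all probes. Both calls at 18 h were lost when any 1 array other than those of clone 7 at 72 h was left out. The 18 at 72 h became 9 or 4 without clone 4 array 1 or 2 and 28 without clone 7 array 1.

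Among the called probes the largest gap between clones was at Z00021669-1, which read 2.62 and 2.41 in clone 4 and 3.07 and 3.31 in clone 7 at 72 h, a difference of 0.67 (SE 0.11, limma adjusted p 0.0122), with WT at 3.82 and 3.68. Z00051298-1 came next among the called probes, with 1.33 and 1.21 in clone 4 and 1.91 and 1.80 in clone 7, a difference of 0.58 (SE 0.11, adjusted p 0.0236), and WT at 3.20 and 3.52. In both, clone 7 lay between clone 4 and WT. Larger gaps that were not called occurred at Z00024137-1 (-1.52), Z00022444-1 (-1.38) and Z00023765-1 (-0.81), whose arrays of clone 7 at 72 h lay more than 1 apart. Over the 160 probes the median difference between clone 7 and clone 4 was 0.10 at 18 h and 0.11 at 72 h. Over all probes of the table it was -0.002 and 0.003. A further fit took the day of feature extraction as a block, with both clones sharing a mean. All clone 7 arrays and no others had the second day, so this block cannot separate the day from clone 7. In that fit 104 members were called for KO minus WT at 18 h in place of 131, and 166 at 72 h in place of 170. For the change between the times 177 were called, as without the block.

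The members also differed from all probes of the table in their level against the reference pool, which the rule did not use directly. Probes with KO effects of like size but no turnover were not set beside them. The level is therefore not read as particular to the members. The mean log2 ratio over all arrays had a median of 0.94 in the 160 probes and 0.03 in the 33, against -0.003 for all probes of the table. At least 2-fold more RNA than in the pool was seen for 77 of the 160 (48.1%) and for 1 of the 33, Z00058273-1, against 10.1% of all probes. At least 2-fold less was seen for 8 of the 160 (5%) and 9 of the 33 (27.3%), against 6.09%. With no dye swap these levels include any dye bias of the probe, which cancels in the differences between groups. A signal exceeding 95% of the negative control spots on every array was found for 93.1% of the 160, 90.9% of the 33 and 87.6% of all probes.

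Without the reference, the sample channel on its own kept both signs in 151 of the 160 and 30 of the 33 probes, but met the limits of the rule in 65 and 7. In all, 211 and 41 probes of the table (0.82% and 0.16%) met the limits on this channel, so most of those were not members. The median differences in this channel were 0.52 at 18 h and -0.39 at 72 h in the 160, and -0.24 and 0.71 in the 33. Calls at 18 h on the sample channel were 112 and 2 in place of 114 and 17, and at 72 h they were 100 and 28. The share of all probes called on this channel is not given, so nothing is read from these counts. The reference channel, which held the same pool on every array, had median KO minus WT differences of 0.12 at 18 h and 0.08 at 72 h in the 160 probes, and of 0.05 and 0.17 in the 33. For all probes of the table these were 0.02 and 0.04. The reference difference exceeded that of the sample in 15 of the 160 at 18 h and 23 at 72 h, and in 9 and 3 of the 33.

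Outside the deposited table lay 16332 further probes of the arrays, which the rule could not reach. The same limits on the scanner fit chose 25 of these (0.153%) as higher at 18 h and lower at 72 h and 26 (0.159%) as the opposite. Of the chosen probes, 19 and 11 were called at both times, against 1.54% and 1.02% of all probes. The choice used the same fit as the calls, so nothing is read from these counts. The first of the chosen probes, Z00010382-1, had 0.86 at 18 h and -1.41 at 72 h. Of these outside probes, 4 share a run of identical bases with a member. Z00058921-1 shares 43 bases with Z00016365-1 and had 0.42 at 18 h and -0.39 at 72 h, where the member had 0.39 and -0.38. Z00072553-1 shares 32 bases with Z00071718-1 and had 0.46 and -1.21, against 0.47 and -1.32. Z00030897-1 shares 22 bases with Z00027115-1 and had 0.29 and -0.56, against 0.37 and -0.80. The fourth, Z00064858-1, matches 21 bases of Z00027115-1 on the opposite strand and had -0.06 and 0.09. The same-strand neighbours thus had the signs of their members at both times, on other spots of the same arrays.

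The probes of both directions had a somewhat lower median G and C content than all probes of the table. It was 40% in the 160 (SD 7.48) and 41.7% in the 33 (SD 6.96), against 43.3% (SD 7.93). These differences were not tested. The letters AATAAA, read on the printed strand of the probe only, occurred in 11 of the 160 (6.88%) and in 1 of the 33 (3.03%), against 7.5% of all probes. That 1 probe was Z00034544-1.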

How the data were processed

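The deposited series table holds log10 values, per the file headers, in 25674 rows. The authors' columns followed the log10 sample over reference ratio of the scanner files plus each probe's mean log10 reference signal (r across probes 0.987 to 0.993), with column medians of 2.99 to 3.00. The sources used here do not say how the authors chose its rows. Members were chosen on it after conversion to log2. The members, and every list and limit, were chosen with earlier results of these data known. The rule for named probes took the first 8 per direction by the smaller of the 2 effects.

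Spot intensities were taken from the scanner files as deposited, which Agilent Feature Extraction wrote, per the submitters' processing notes. Mean signals were corrected with normexp (offset 50) and normalised by loess within arrays in limma 3.58.1 under R 4.3.3. Control and outlier-flagged spots were left out and the sign was turned to sample over reference. A single fit to the 12 arrays estimated each group's mean (6 residual degrees of freedom), with Benjamini-Hochberg adjustment over 42000 probes at 0.05. The fit was tested on simulated data. Planned gene lists and cell type markers were not analysed here, since no file pairs probes with genes.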

Additional observations from a re-analysis of the deposited data

Results flagged for a closer look

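The KO minus WT difference changed between 18 h and 72 h in 177 of the 193 members by limma (adjusted p under 0.05), which restates how they were selected. Clone 7 and clone 4 differed in 2 members at 18 h and in 18 at 72 h, 17 of the latter being higher in clone 7.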

How the results depend on the processing

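Of the recomputed counts, 147 stayed within 1.5 times the reported one and 40 did not, 19 of them without leaving out arrays. Named probes gave 538 values within 1 SD, 81 moved further and 13 reversed; the cause was not tested. The member counts of 160 and 33 became 389 and 133 at a limit of 0.25, 45 and 6 at 0.5, and 69 and 17 when each clone had to reach 0.35; clone 4 alone gave 50 in the second direction. Arrays were left out singly, and also all arrays 1 or all arrays 2 together. Over these omissions the member counts ranged from 105 to 264 and from 30 to 74. The values 105, 264 and 74 came from leaving out all arrays of the same number. WT changes with time, 53, became 27 at an adjusted p of 0.01 and 19 in the sample channel alone. The clone calls at 18 h, 2, became 0 at 0.01, with median centring, without background correction, with the replicate block, in the sample channel alone and in the deposited table. At an unadjusted p under 0.05 in limma, the clones differed at 18 h in 44 and 9 members by direction, and in 10.1% of all probes. The clone calls at 72 h, 18, became 5 at 0.01, 9 with median centring, 7 without background correction and 38 in the sample channel alone.

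Without each array in turn, calls ranged from 82 to 143 for KO minus WT at 18 h, 143 to 178 at 72 h, 166 to 183 for their difference, 27 to 62 for time in WT, 175 to 181 for time in KO, and 0 to 3 and 4 to 28 between clones at 18 h and 72 h. Deviations of same-numbered arrays from their group means correlated from -0.16 to 0.36 between groups, highest between clones 4 and 7 at 18 h. These values do not settle whether the numbers pair the samples. With the replicate block the calls were 139, 174 and 180 for KO minus WT at 18 h, at 72 h and their difference. They were 48 for time in WT, 179 for time in KO, and 0 and 19 between clones.

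Every reversal was at a probe with a flagged spot. Z00021474-1 at 18 h was -0.49 with flagged spots kept and -0.54 in the table. At 72 h it was 0.44 and 0.55 there, 0.082 with median centring, 0.0090 with the replicate block, and from -0.087 to 0.051 without 1 array (above 0 without clone 7 array 1 or WT array 1). Z00025790-1 at 18 h was 0.12 with median centring, 0.041 with the replicate block, and from -0.060 to 0.018 without 1 array (above 0 without clone 4 or clone 7 array 2). Z00034544-1 at 18 h was 0.016 without background correction. With 2 arrays per group, the number of arrays limits the precision.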
